A study of Mus musculus with 2 samples.

Results

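The clustered protocadherins are cell-surface proteins of the cadherin family encoded by the Pcdha, Pcdhb and Pcdhg gene clusters, which lie in a row on mouse chromosome 18. Every gene probe on both arrays whose RefSeq accession maps to a symbol beginning with Pcdha, Pcdhb or Pcdhg was taken. This gave 38 probes of 35 genes, out of 39411 gene probes usable on both arrays and 20823 genes that could be named. The gene table used for names lists 58 clustered protocadherin genes. The array held a named probe for 7 of 14 genes of the alpha cluster, all 22 of the beta cluster and 6 of 22 of the gamma cluster. The alpha and gamma clusters were therefore only partly sampled, and only 1 gene of the gamma B group, Pcdhgb1, was among the probes.

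In the alpha and gamma clusters, each of a row of variable exons has its own promoter and is spliced to constant exons that all transcripts of the cluster share, whereas each beta gene is a single exon with no constant part. Neurons choose among these promoters, and the proteins bind their own kind between cells, which allows branches of one neuron to recognise and avoid each other. Promoter choice involves the insulator protein CTCF and cohesin, and the unused promoters carry DNA methylation. The last variable exons of the alpha and gamma clusters, called C-type, are regulated apart from the alternate exons that precede them.

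The cells were Baf53a cKO ES cells, an E14-derived line of mouse embryonic stem cells in which CRISPR/Cas9 had mutated both Baf53a alleles and a resistant Baf53a copy was repressed by tetracycline (Tet). They were transfected with an expression vector for Baf53a, the form of this BAF chromatin remodelling subunit found in dividing cells, or for Baf53b, its form in neurons, and after 48 h were given 1 μg/mL Tet for 6 days in medium with LIF. Both conditions thus shared the mutated alleles, the resistant copy and Tet, differed in the transfected vector, and came from a line derived from 1 clone. The comparison asks how the Baf53b-expressing cells differed in gene expression from the Baf53a-expressing cells, and here it is read for the clustered protocadherins.

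There was 1 array per condition, so no test was run, no p-value is given and no difference has a replicate check. The arrays shared 1 slide and 1 scan, at positions 3 and 4. Values are processed signals, the brightness of a spot after background subtraction and spatial detrending, in arbitrary units. Differences are on the log2 scale, Baf53b- minus Baf53a-expressing cells, after the 75th percentile of each array (a signal of 1161 and of 1128) was set to 0. For members well above background on both arrays, each is given with the error that the scanner software's own signal errors imply. That error does not hold the spread between cultures. For most other genes no error is given. A probe is called detected here when the software marked at least 50% of its spots as well above background. The lowest signal marked so was 8.45 for Baf53a- and 9.75 for Baf53b-expressing cells. Signals of different probes are not compared with each other, since probes differ in how well they bind.

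The labels were checked first. The probe of Actl6b, which encodes Baf53b, had a signal of 3.40 in Baf53a-expressing cells, where it was not well above background, and 119 in Baf53b-expressing cells, at least 3.86 higher on the log2 scale. Actl6a, which encodes Baf53a, had signals of 3806 and 3600, a difference of -0.04, and showed no excess in the cells given the Baf53a vector. Whether its probe lies in the part of the transcript that the vector carries was not analysed here, so Actl6b alone checks the labels, and only for the Baf53b-expressing cells. All 12 probes of 9 pluripotency markers were detected on both arrays, with a median difference of -0.09, and Pou5f1, which encodes Oct3/4, had signals of 27167 and 24042. Of 16 probes of neuron markers on the array, 11 were detected on both arrays and 3, of Map2, Rbfox3 and Dcx, in Baf53b-expressing cells only (18.8%, against 2.18% of all gene probes). These had signals of 10.02 and 14.6 (Map2), 8.14 and 10.1 (Rbfox3) and 7.58 and 12.2 (Dcx). They were at least 0.59, 0.30 and 0.57 higher on the log2 scale, all bounds under 2-fold. The other probes of Map2 (0.11) and Rbfox3 (0.13 and 0.37) were detected on both arrays, and the other probes of Dcx on neither. Tubb3, a neuronal tubulin, had signals of 9122 and 7984, and the brighter probe of Map2, a protein of dendrites, had 20.9 and 21.8. The neuron markers detected on both arrays ran from -0.20 (Stmn2) to 0.38 (Elavl4), with Nefl at 0.32, and the 9 detected probes of neural progenitor markers from -0.35 (Fabp7) to 0.30 (Zic1). All 9 probes of primitive endoderm markers were higher in Baf53b-expressing cells, by 0.08 (Sox7) to 0.40 (Dab2). Of all 29247 probes detected on both arrays, 14524 were higher. Whether these marker differences have a part in the protocadherin values was not tested. In bulk RNA, fewer cells of a type and less RNA per cell cannot be told apart.

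Most clustered protocadherins gave no signal well above background in these cells. Of the 38 probes, 12 were detected on both arrays (31.6%), against 74.2% of all gene probes. Another 24 were detected on neither array, and 2 in Baf53b-expressing cells only, against 2.18% of all gene probes. None was detected in Baf53a-expressing cells only, against 0.959% of all gene probes. The base of these shares includes probes detected on both arrays, which were fewer among the members. Counted by gene, 11 of 35 had a probe detected on both arrays and 22 had none on either. When all probes detected on both arrays were divided by mean signal into 5 bands of equal size, 7 of the 12 members lay in the dimmest band, 4 in the band above it and 1 in the brightest.

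**Figure D1:**
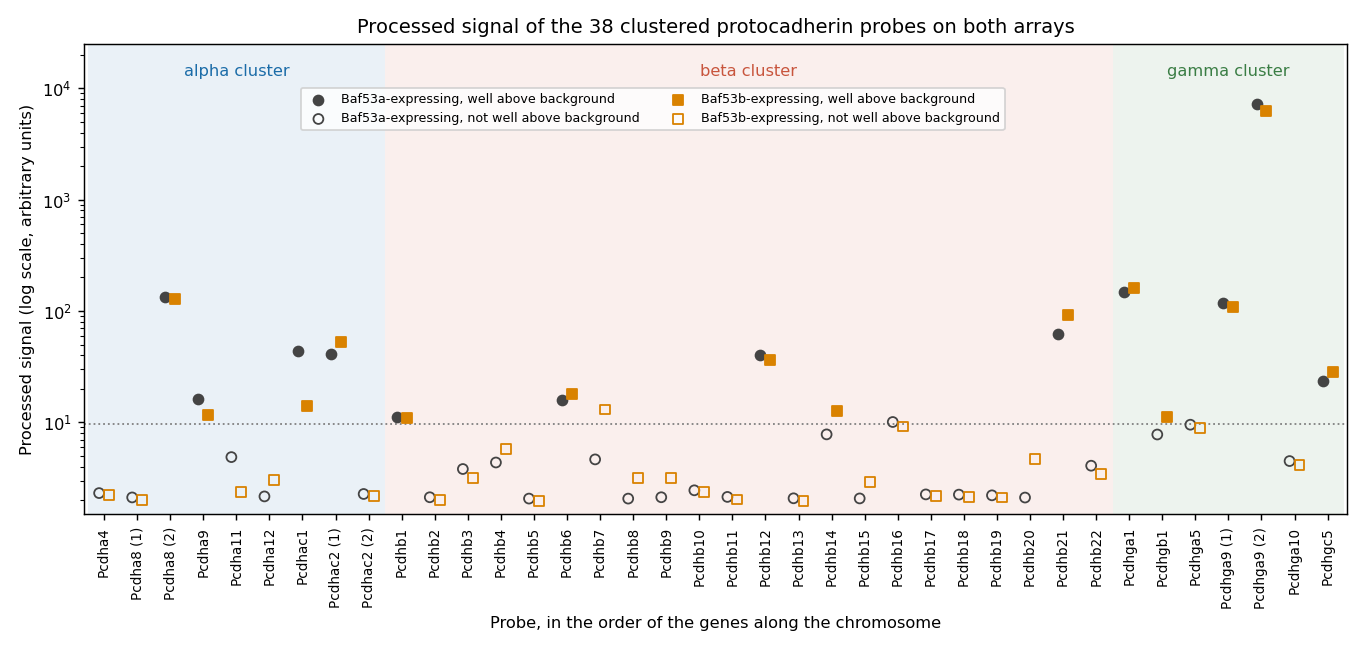
Processed signal (log scale, arbitrary units) of each of the 38 probes, in the order of the genes along the chromosome, for Baf53a-expressing cells (circles) and Baf53b-expressing cells (squares). Filled symbols are well above background, numbers in brackets tell apart probes of 1 gene, and the dotted line is the higher of the lowest signals marked well above background (9.75). Most beta genes lie below the line on both arrays, and the second probe of Pcdhga9 stands at 7257 and 6251.

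Among the probes present, the beta cluster had the lowest share detected on both arrays. The shares are not like for like, since only 7 of 14 alpha and 6 of 22 gamma genes had a probe. An alpha or gamma probe in a constant exon would also read every transcript of its cluster. In the beta cluster 4 of 22 probes were detected on both arrays (18.2%), in the alpha cluster 4 of 9 (44.4%) and in the gamma cluster 4 of 7 (57.1%). The probes detected on neither array numbered 17 in the beta, 5 in the alpha and 2 in the gamma cluster. The median of their signals was 2.25 with Baf53a and 2.65 with Baf53b, and the highest were 10.1 and 13.1. Detected genes did not form 1 block: in the beta cluster Pcdhb1, Pcdhb6, Pcdhb12 and Pcdhb21 were separated by genes that were not well above background.

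The low share was not shared by the genes around the clusters. All 11 probes of the 10 nearest named coding genes before the alpha cluster were detected on both arrays, as were all 14 probes of the 10 nearest after the gamma cluster. Zmat2, the nearest gene before the alpha cluster, had signals of 19124 and 18224 at its first probe. Diaph1, a formin and the nearest gene after the gamma cluster, had 315 and 308. Inside the clusters, Taf7, a subunit of the general transcription factor TFIID, was detected at both its probes, the brighter at 2331 and 2048, and Slc25a2, a mitochondrial carrier, at 16.1 and 13.1. The median difference was -0.05 before the alpha cluster, -0.14 inside and -0.00 after the gamma cluster, and the probes furthest apart were Tmco6 (-0.27) and Pcdh12 (0.52).

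**Figure D2:**
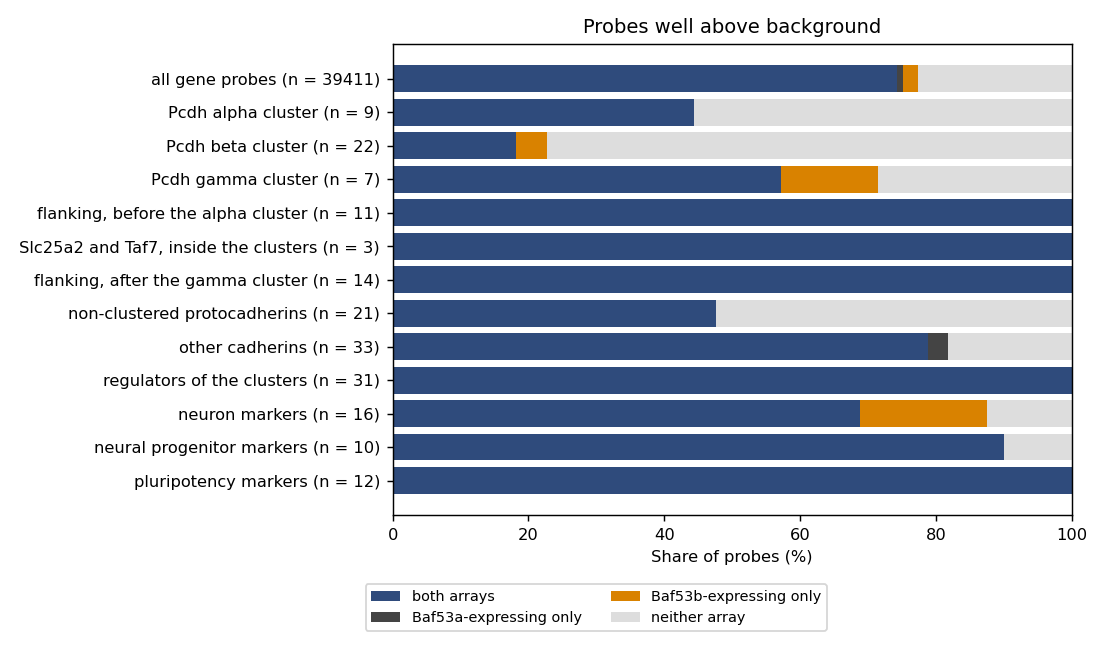
Share of probes (%) well above background on both arrays, on 1 array or on neither, for all gene probes, the 3 clusters, the genes around and inside them, and other gene lists. The bars of the clusters reach 44.4%, 18.2% and 57.1% on both arrays, and those of the flanking genes reach 100%.

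The alpha cluster held the member with the largest difference of all 12. Pcdhac1, a C-type member, had a signal of 43.8 in Baf53a-expressing cells and 14.1 in Baf53b-expressing cells, a difference of -1.60 (software error 0.31), or 0.33-fold. It was detected on both arrays, at 1 spot each. Before background subtraction the median pixel signal of that spot was 69 over a local background of 23 in Baf53a-expressing cells, and 43.5 over 21 in Baf53b-expressing cells. It was the only member at least 2-fold lower, against 0.116% of all probes detected on both arrays and 0.41% of those in the dimmest band, where it lies. In that band 10 of 5850 probes had a difference as low or lower. Starting from the median pixel signal, with normexp and an offset of 50, the difference was -0.32. An offset added to both signals draws the difference of a dim probe towards 0 by construction. How much each of these 3 changes moved it was not tested.

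Pcdhac2, the other C-type member of the alpha cluster, went the other way at its detected probe, with signals of 41.3 and 52.7 and a difference of 0.39 (software error 0.23). Its second probe stood at 2.27 and 2.18, well above background on neither array. Among the alternate members, Pcdha9 had signals of 16.1 and 11.8 and a difference of -0.41 (software error 0.37). Pcdha8 had 134 and 128 at its second probe, a difference of -0.02 (software error 0.21), while its first probe was well above background on neither array (2.12 in Baf53a-expressing cells). The 2 probes of Pcdha8 and of Pcdhac2 thus disagreed on whether the gene was detected at all. Pcdha4, Pcdha11 and Pcdha12 were not well above background on either array, with signals from 2.16 to 4.88 and from 2.21 to 3.05.

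Among the beta probes detected on both arrays, Pcdhb21 showed the largest difference. Its signals were 62.4 and 91.8, a difference of 0.60 (software error 0.21), higher in Baf53b-expressing cells. In its band of signal, the next to dimmest, 46 of 5849 probes differed by as much or more in that direction. Pcdhb6 had signals of 15.8 and 18.1 (difference 0.23, software error 0.32). Pcdhb12 had 40.5 and 36.1 (difference -0.12, software error 0.24). Pcdhb1, which stands first in the beta cluster, had 11.2 and 10.9 (difference 0.01, software error 0.45). The last 3 differences were smaller than their own errors.

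Pcdhb14 was detected in Baf53b-expressing cells only. Its signals were 7.80 and 12.6, at least 1.54-fold higher. This lower bound divides the detected value by the lowest signal well above background on the other array, which here exceeded the value measured there. On the log2 scale it was 0.62, and it fell to 0.35 with the authors' value table and to 0.15 with normexp. The offset of 50 used with normexp exceeds both signals, which draws such a difference towards 0 by construction. The value table holds the same signals, divided by a constant per array, for fewer probes (30479). With it the bound fell because the lowest signal well above background among those probes was higher, not because the signals differed. The array printed the probe of Pcdhb3 at 10 spots, which gives a view of the spread of a dim probe. Its signals ran from 2.05 to 6.47 (median 3.66) in Baf53a-expressing cells and from 2.24 to 4.13 (median 3.08) in Baf53b-expressing cells, with 0 spots well above background on either. The mean difference was -0.14 with a standard error over spots of 0.22, and the signal was higher in Baf53b-expressing cells at 4 of 10 spot positions. Those spots share 1 RNA sample per array, so their spread is technical.

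Pcdhb7 in Baf53b-expressing cells and Pcdhb16 in Baf53a-expressing cells had signals above the lowest one marked well above background there, without being marked so. On the other array each lay below it. Pcdhb7 had 4.65 and 13.1, and Pcdhb16 had 10.1 and 9.19. Pcdhb20 lay lower, at 2.11 and 4.70. No fold is given for these, since neither side was well above background.

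The 4 gamma probes detected on both arrays were all less than 0.5 apart. Pcdhga9 had signals of 7257 and 6251 at its second probe, a difference of -0.17 (software error 0.20), and 118 and 109 at its first, a difference of -0.06 (software error 0.21). Pcdhga1 had 150 and 162 (difference 0.16, software error 0.21). Pcdhgc5, the only C-type gamma member among the probes, had 23.5 and 28.4 (difference 0.32, software error 0.27). Pcdhgb1 was detected in Baf53b-expressing cells only, with signals of 7.78 and 11.1, at least 1.36-fold higher (0.44 on the log2 scale, and 0.16 both with the authors' value table and with normexp). Pcdhga5, at 9.53 and 8.85, and Pcdhga10, at 4.49 and 4.14, were detected on neither array.

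The bounds of Pcdhb14 and Pcdhgb1 were both under 2-fold, a size that 9.44% of the probes detected in Baf53b-expressing cells only reached. With a weaker flag of the software, which asks only that the signal is positive and significant against background, 21 of the 38 probes passed on both arrays, against 85.3% of all gene probes. A further 5 passed in Baf53b-expressing cells only, 4 of them beta genes and 1 an alpha gene, against 2.67% of all gene probes. Only 1 passed in Baf53a-expressing cells only, against 1.76%. The base of these shares includes probes that passed on both arrays, which were fewer among the members (55.3%, against 85.3%). The members thus had more room to pass on a single array. Pcdhb14 and Pcdhgb1 carried the weaker flag on both arrays.

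**Figure D3:**
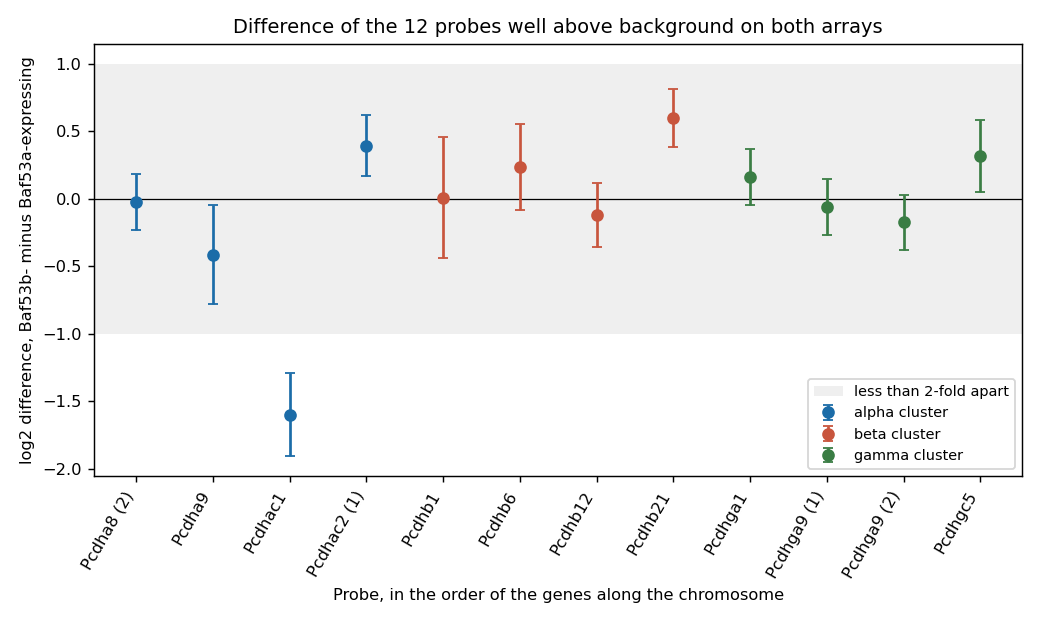
Log2 difference (Baf53b- minus Baf53a-expressing cells) of the 12 detected probes, in the order of the genes along the chromosome and coloured by cluster. Bars are the error implied by the scanner software, not a spread between replicates, and the grey band marks less than 2-fold. Pcdhac1 lies below the band at -1.60, and the others lie between -0.41 and 0.60.

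Taken as a group, the detected members were evenly split. Of 12 probes, 6 had a higher value with Baf53b and 6 a lower one, with a median difference of -0.01, and the median over all probes detected on both arrays was -0.00. The median was -0.22 over 4 probes in the alpha, 0.12 over 4 in the beta and 0.05 over 4 in the gamma cluster. The alpha median was -0.01 with normexp and -0.02 without Pcdhac1. The beta median turned to -0.02 with quantile normalization, and the gamma median to -0.00 with centring on the median and -0.01 with cyclic loess. With no filter on dim probes the medians were -0.02 in the alpha, -0.01 in the beta and -0.06 in the gamma cluster. No cluster can be said to have moved in 1 direction from these values.

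None of the 12 was at least 2-fold higher, against 0.137% of all probes detected on both arrays. At a threshold of 0.5 on the log2 scale, 1 member was lower, against 0.783%, and 1 was higher, against 2.27%. The remaining 10 were less than 0.5 apart. At 2-fold, with no filter on dim probes, 1 of 38 members was lower and 2 were higher, against 490 and 847 of 39411 gene probes. With the weaker flag 1 of 21 was lower and 1 higher, against 260 and 494 of 33611 gene probes. With normexp 0 of 12 were lower and 0 higher, against 2 and 0 of 29247 gene probes. Dim probes spread more: the standard deviation of the difference over probes was 0.32 in the dimmest band and 0.11 in the brightest, and in the dimmest band 2.65% of probes were at least 0.5 lower and 8.77% at least 0.5 higher. The dimmest band as a whole was shifted upwards, with a median of 0.10, and the median of its 7 protocadherins was 0.01. Of those 7, 1 (Pcdhac1) was at least 0.5 lower and 0 were at least 0.5 higher. For probes printed 10 times, the spread of repeat spots within each array was combined over both arrays. The implied standard deviation of a single-spot difference was 0.27 in the dimmest band and 0.12 in the next. No variation from array to array is held in it. In the dimmest band the differences of Pcdhac1, Pcdha9, Pcdhac2 and Pcdhgc5 were larger than this technical spread. Those of Pcdhb21 and Pcdhga1 were larger than that of the next band. The brighter probe of Pcdhga9 went beyond that of the brightest band (0.06), and the remaining members lay within theirs. In the brightest band the median software error was 0.20, larger than this spread. Pcdhac1 (-1.60 against 0.27) and Pcdhb21 (0.60 against 0.12) went furthest beyond the spread of repeat spots in their bands. That spread is technical, and without replicate cultures the biological spread is unknown.

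**Figure D4:**
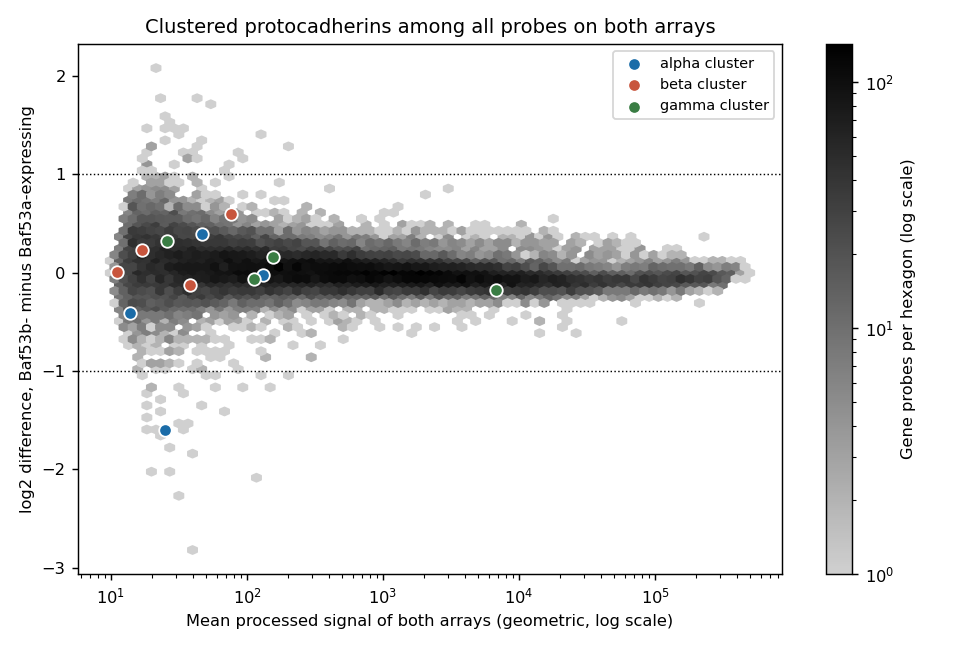
Log2 difference (Baf53b- minus Baf53a-expressing cells) against the geometric mean of both processed signals (log scale) for all 29247 probes detected on both arrays (grey, darker where more probes lie) and the 12 clustered protocadherins (coloured by cluster). Dotted lines mark 2-fold. The cloud widens towards low signals, where most of the protocadherins lie, and Pcdhac1 is the member outside the lines.

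The regulators that act on these clusters were read from a list of 23 genes with 31 probes. All 31 were detected on both arrays, 13 and 12 of them in the 2 brightest bands, where differences are small. All lay within 0.2 of 0, as did 22645 of all 29247 probes detected on both arrays. They ran from -0.11 (Smc1a, a cohesin subunit) to 0.09 (Nipbl, the cohesin loader). Ctcf had signals of 5893 and 5913, and Rad21, a cohesin subunit, 22980 and 21748. Smchd1, a chromatin protein that represses the clusters, had 6090 and 6265 at its first probe. Dnmt3b, a DNA methyltransferase that methylates their promoters early in development, had 12158 and 12544 at its brightest probe. Setdb1, a histone H3 lysine methyltransferase, had 1852 and 1751. Rest, a repressor of neuronal genes, had 6086 and 5500 at its brighter probe, a difference of -0.10.

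Transcripts of a list of partner and processing genes of the protocadherins were also measured. All 15 probes of 13 such genes were detected on both arrays, with a median difference of 0.00. They ranged from -0.18 (Cyfip1, a subunit of the WAVE complex, which the protocadherin tails recruit) to 0.38 (Ret, a receptor tyrosine kinase, at 66.1 and 83.8). Adam10, a membrane protease that cleaves gamma protocadherins, had signals of 2472 and 2348. Snap25, a SNARE protein of synaptic vesicle release that is also on the list, had 11383 and 14060, a difference of 0.35 in the brightest band.

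Non-clustered protocadherins, single genes outside the 3 clusters, were detected on both arrays at 10 of 21 probes. Their median difference was 0.19, with 8 of 10 higher in Baf53b-expressing cells, against 14524 of all 29247 probes detected on both arrays. These 10 lay in the 3 dimmest bands (4, 3 and 3 probes), whose medians over all probes were 0.10, 0.05 and 0.02. Pcdh12, an endothelial protocadherin that lies among the genes after the gamma cluster, had signals of 62.8 and 87.4 (difference 0.52, software error 0.21). Pcdh9 had 57.8 and 35.1 at its only detected probe (difference -0.68, software error 0.24). Of the other cadherins, 26 of 33 probes were detected on both arrays, with a median difference of 0.07. Dsc2, a desmosomal cadherin, was highest, at 36.2 and 56.8 (difference 0.69), and Cdh22 lowest, at 234 and 178 (difference -0.36). Cdh1, the E-cadherin that joins ES cells to each other, had 2672 and 2962. Cdh18 was detected in Baf53a-expressing cells only, at 19.5 against 8.79. No non-clustered protocadherin or other cadherin detected on both arrays was 2-fold apart.

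The values of the 12 detected members were set against other ways of scaling the arrays and correcting the background. Signs of 10 of the 12 stayed the same in all settings run, and those of Pcdhb1 and the second probe of Pcdha8, both close to 0, did not. The changed filters and the keeping of outlier spots left each member's value as it was, and the value table holds the same signals. Only the other scalings and normexp could move a sign. Pcdhac1 ran from -1.72 to -0.32, Pcdha9 from -0.55 to -0.03 and Pcdhb21 from 0.38 to 0.62. For Pcdhac1 and Pcdha9 the value nearest 0 came from normexp on the median pixel signal with an offset of 50.

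**Figure D5:**
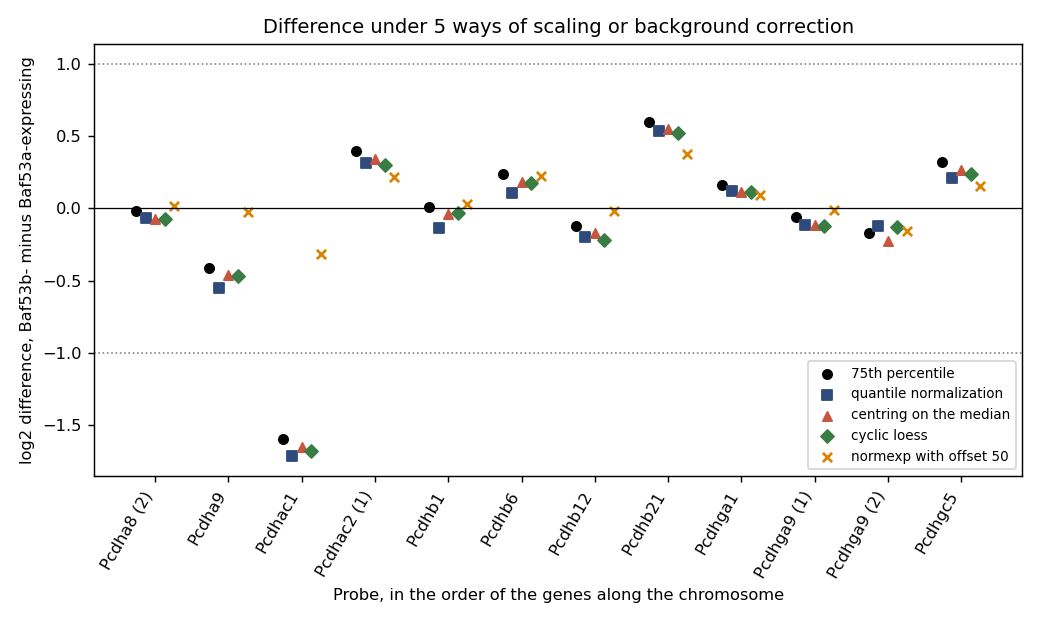
Log2 difference (Baf53b- minus Baf53a-expressing cells) of the 12 detected probes under 5 ways of scaling or background correction, with each way as a marker and dotted lines at 2-fold. Pcdhac1 lies near -1.6 in 4 of the 5 and at -0.32 with normexp, while Pcdhb21 stays between 0.38 and 0.60 in all 5.

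Sequence sharing bears on which gene a signal belongs to. No RefSeq accession was shared by several members. The gene table also lists 3 fused coding genes that span parts of the clusters, and none had a probe. Where a probe lies within its transcript was not analysed here, so a probe in a constant exon, which would read every transcript of the alpha or of the gamma cluster, cannot be told apart from a probe in a variable exon. This touches the alpha and gamma probes in particular, and among them the bright second probe of Pcdhga9, whose gene also has a first probe at 118 and 109. Beta genes are near-identical copies in parts, and signal from a neighbour at a beta probe was not tested.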

How the data were processed

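Each condition was measured on 1 Agilent array that uses 1 colour (Cy3), from 0.2 μg of total RNA. As the authors deposited them, the spot intensities came from Feature Extraction 11.0.1.1, with the background subtracted and spatial trends removed but without scaling between arrays. The array design refers to mm9. A value table that the authors deposited gives each probe as a ratio of its signal to 1 number per array (1160 and 1126, found by comparison with the spots, within 0.1%).

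Control spots and outlier spots (173 and 143, of which 0 belonged to members) were left out, repeat spots of a probe were averaged as log2 signals, and the 75th percentile over gene probes was subtracted. No spot was saturated. A RefSeq gene table of GRCm38.p6, used for names and order only, named 27410 probes by accession. The 5 bands of signal divide the 29247 probes detected on both arrays. The number of arrays, 1 per condition, limits the precision, and no test was possible. The members and lists were chosen with earlier results of these data known. Named were every C-type member, the 3 brightest and the most different probes of each group of members, every member at least 0.5 apart, detected on 1 array only or with several probes, and the extremes and some set genes of each list. Members near the detection limit, Adam10, Snap25, Cdh1, Cdh18, Nefl and the dim neuron markers were added after their values were seen. Alternatives were other scalings and filters, the authors' value table and normexp on the median pixel signal, as mean pixel signals were not used here. The calculations used Python 3.11.15, numpy 2.4.6, pandas 2.3.3, matplotlib 3.10.9, R 4.3.3 and limma 3.58.1. Scaling by the 75th percentile, quantile normalization and cyclic loess were tested on simulated data, with changes placed outside the dimmest probes only. Detection calls, bounds and normexp were not tested in this way.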

Additional observations from a re-analysis of the deposited data

How the results depend on the processing

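Over the scalings, filters and background corrections run, the median difference ran from -0.31 to -0.01 in the alpha, from -0.02 to 0.15 in the beta and from -0.06 to 0.16 in the gamma cluster, so the beta and gamma medians changed sign. The count of members at least 2-fold lower, 1 (Pcdhac1), became 0 with normexp and an offset of 50, and 0 when only probes above the median of all gene probes on both arrays were kept, a filter that leaves Pcdhac1 out. It was also 0 without Pcdhac1, an alternative chosen after seeing the data, which left the median of all members at 0.01. The count at least 2-fold higher, 0, became 2 without a filter on dim probes (Pcdhb7 and Pcdhb20) and 1 with the weaker detection flag (Pcdhb7). That flag raised the members detected on both arrays from 12 to 21 and those on 1 array only from 2 to 6. Under quantile normalization Pcdha9 also passed 0.5 lower, at -0.55. The bounds of Pcdhb14 (0.62) and Pcdhgb1 (0.44) fell to 0.35 and 0.16 with the authors' value table and to 0.15 and 0.16 with normexp. With the value table only the lowest detected signal used for the bound changed, since it holds the same signals for fewer probes. Over all gene probes detected on both arrays, the 34 lower and 40 higher by at least 2-fold became 2 and 0 with normexp. With no filter, over 39411 gene probes, they were 490 and 847. The offset used with normexp draws differences of dim probes towards 0 by construction.

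The stricter filter left no beta member and so gave no value there. No paired analysis was possible because each condition had a single array, which also left no replicate to drop. Signal over background limits these values: 11 of the 12 detected members lay in the 2 dimmest of 5 bands of signal, and for the 24 well above background on neither array, of which 7 were positive and significant on both, no fold is given. Of the errors shown, none holds the spread between cultures, transfections or clones.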
